A study of Mus musculus with 90 samples.

Results

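Control amygdala was compared with control frontal cortex in mice that had met no intruder, to describe which transcripts distinguish these regions. The members are all control libraries of either region, taken from the labels: 15 of amygdala and 16 of frontal cortex, 31 of the 90 libraries in the series, with the time after exposure as a covariate. The series measured poly(A) RNA in amygdala, frontal cortex and hypothalamus of resident males that saw either a caged strange male or a control object. The animals of both groups used here were male C57BL/6J residents, housed with other males for 2 weeks, alone for 1 week and with a C57BL/6J female for 1 week, and the female was taken out 3 h before the test. For 5 min a steel mesh cage holding a paper cup stood in the home cage, and the mouse then stayed in the dark for 30, 60 or 120 min before cervical dislocation and dissection. Each region had 5 control animals at each time, except 6 for frontal cortex at 120 min. The 15 amygdala libraries came from animals that also gave a frontal cortex library. Residents exposed to a BALB/cJ male, 15 amygdala and 16 frontal cortex libraries, served as a second set of animals. No transgene or deletion is named, and ages are not given in the sources used here.

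The frontal cortex is a layered sheet in which most neurons are glutamatergic and carry transcription factors of the dorsal telencephalon, such as members of the NEUROD family, beside a minority of local GABA neurons. The amygdala is a cluster of nuclei of mixed origin: the basolateral group is cortex-like and glutamatergic, the central group is striatum-like and GABAergic, and the medial group holds neurons with steroid receptors and neuropeptides that take part in social and reproductive behaviour. A dissected block holds all of its cell types, so in bulk RNA fewer cells of a type and less RNA per cell cannot be told apart.

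Levels are CPM, the reads of a gene scaled to an equal total of gene reads in each library, with trimmed-mean normalisation. They were used to compare regions for one gene and not to rank genes, since they are not divided by transcript length. A gene is called when the Benjamini-Hochberg adjusted p of edgeR's quasi-likelihood test is below 0.05, and a difference is large when the fitted log2 fold change, amygdala minus frontal cortex, is at least 1 in size. Depth ranged from 45.12 to 52.39 M gene reads in amygdala and from 38.6 to 53.79 M in frontal cortex. The coefficient of variation between animals, estimated by edgeR within each region, was 15.1% in amygdala and 8.6% in frontal cortex, and the median SD of log2 CPM over 10166 genes was 0.11 and 0.09. The first principal component, with 60.5% of the variance, separated the regions. The leading index sequence of a library was never shared between the regions among the controls (4 used in each), so a leading index and the region cannot be told apart here.

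The regional difference was broad. Of 16571 genes tested, 11162 were called (67.4%), with 5918 higher in amygdala (35.7%) and 5244 higher in frontal cortex (31.6%), and the median log2 difference over all tested genes was 0.02. The balance between the directions rested on few libraries. Without 4 frontal cortex libraries, described below as bulb-high, 5258 genes were higher in amygdala and 5573 in frontal cortex. Leaving out 1 library at a time gave 5514 to 5956 and 5099 to 5699, with at most 11259 called in all. Leaving out a single library could thus also reverse the balance. Large differences were fewer: 797 genes were higher in amygdala (4.81%) and 525 in frontal cortex (3.17%). The groups did not overlap, every library of one region lying above every library of the other, for 1000 genes with amygdala above (6.03%) and for 1156 genes with frontal cortex above (6.98%). At each time taken alone the sign was the same for 796 of the 797 and for 524 of the 525 large differences, and 728 and 504 of them were called at all 3 times.

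Among genes with a mean of at least 10 CPM in the higher region, the largest amygdala-high differences with no overlap included a peptide precursor, receptors and signalling proteins. Avp, the precursor of vasopressin, ranged from 0.932 to 44.5 CPM in amygdala (median 11.6) and from 0.0777 to 0.55 CPM in frontal cortex (median 0.244). The lowest amygdala library was thus above the highest frontal cortex library, which the rule for these genes required, and the log2 difference was 5.79 (SE 0.46). Avp passed the low-count filter through amygdala alone, so its test is not used as support. Its spread among amygdala libraries was wide at every time, the means being 22.9 ± 17.9, 7.6 ± 4.6 and 14.6 ± 12.0 CPM at 30, 60 and 120 min (SD, n = 5 each). Gpr101, an orphan G protein-coupled receptor, was far tighter, at 27.3 to 76.6 CPM in amygdala (median 39.2) against 0.181 to 3.73 CPM in frontal cortex (median 0.631), a log2 difference of 5.51 (SE 0.30). Baiap3, a C2-domain protein of dense-core vesicle traffic, was found at 107 to 339 CPM in amygdala (median 225) and at 1.39 to 14.5 CPM in frontal cortex (median 4.36), a log2 difference of 5.18 (SE 0.26).

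The other 8 genes described that were chosen by the same rule followed the same pattern, with amygdala medians of 12.5 to 59.9 CPM and frontal cortex medians of 0.388 to 2.69 CPM. Their log2 differences were 5.45 for Arhgap36, a GTPase-activating protein, 5.12 for Irs4, an insulin receptor substrate, 4.84 for Dlk1, a non-canonical Notch ligand, and 4.66 for Dgkk, a diacylglycerol kinase. Magel2, a MAGE family protein of endosomal traffic, stood at 4.53, and Gabrq, the theta subunit of the GABA-A receptor, at 4.50. AW551984 differed by 4.46 and Igsf1, an immunoglobulin superfamily membrane protein, by 4.43. Of these 11 genes, 6 lie on the X chromosome: Gpr101, Arhgap36, Irs4, Dgkk, Gabrq and Igsf1. Among genes with a known chromosome, 3.68% of those tested and 7.98% of the large amygdala-high ones lie there. The 11 were picked for size, so their count is a description.

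In control hypothalamus, measured in 13 libraries, the median level was above the amygdala median for all 11 genes: Avp stood at 231 CPM, Baiap3 at 617 CPM and Gpr101 at 104 CPM there. A list of 18 hypothalamic genes, Avp among them, was set beside them. No count of calls is given for it, since 9 of the 18 genes failed the low-count filter and 5 more passed it through amygdala alone. The mean log2(CPM + 1) over the list was 0.83 to 1.40 in amygdala, 0.15 to 0.34 in frontal cortex and 3.71 to 4.76 in hypothalamus. Members of the list were found at both ends in amygdala. Fezf1, a zinc finger factor of ventromedial hypothalamic neurons, was at 1.77 to 6.21 CPM in amygdala, at most 0.296 CPM in frontal cortex and a median of 22.5 CPM in hypothalamus. Nkx2-1, a homeobox factor of the ventral forebrain and hypothalamus, was at 1.58 to 6.24 CPM, at most 1.37 CPM and a median of 25.4 CPM in the same order. Others were at or near 0 in amygdala: Hcrt, the orexin precursor, reached at most 0.105 CPM against a hypothalamic median of 115 CPM, and Pmch, the melanin-concentrating hormone precursor, at most 1.12 CPM against 403 CPM. The homeobox genes Six6 and Hmx2 reached at most 0.0648 and 0.0449 CPM in amygdala, with hypothalamic medians of 10.6 and 2.36 CPM. Whether hypothalamic tissue contributed to the amygdala levels of Avp or the other genes was not tested.

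**Figure D1:**
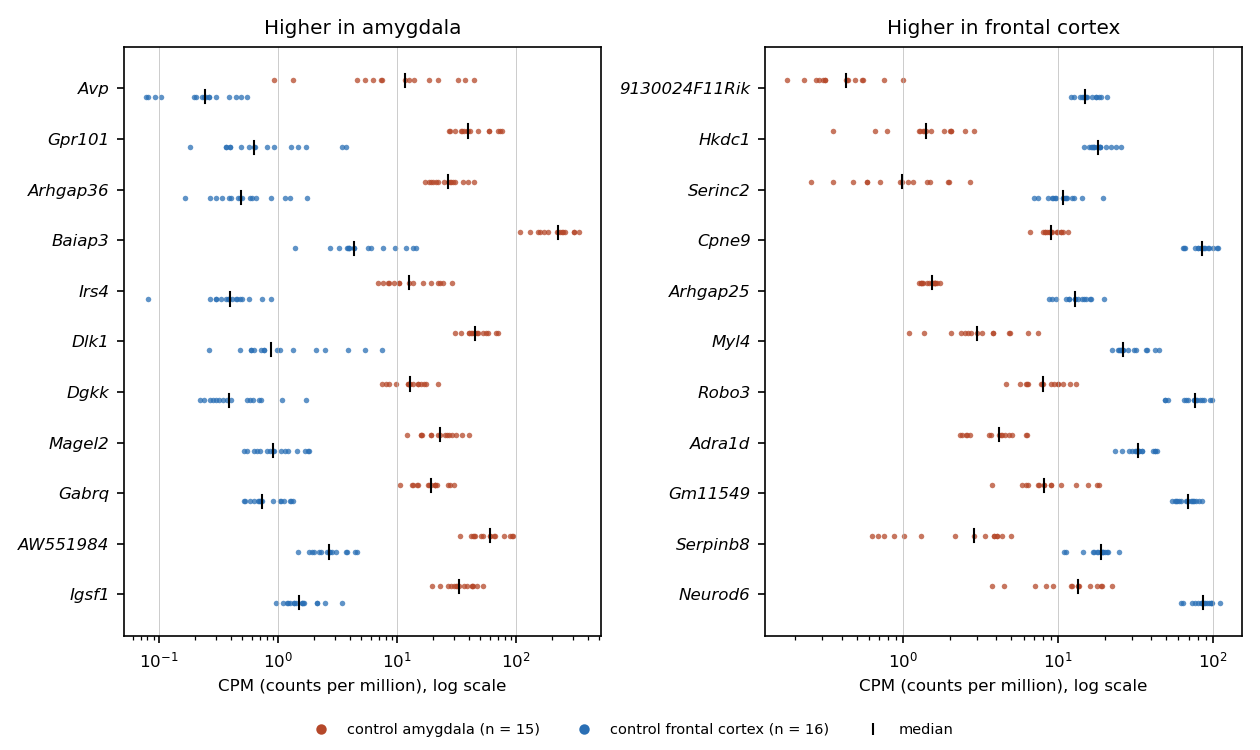
CPM on a log axis of the 11 genes described with the largest amygdala-high differences (left) and the 11 with the largest frontal-cortex-high differences (right) among called genes with a mean of at least 10 CPM in the higher region whose groups did not overlap; each point is a control library, red for amygdala (n = 15) and blue for frontal cortex (n = 16), and the black tick is the median. The red and blue points of a gene never mix, and Avp spans the widest range in amygdala, 0.932 to 44.5 CPM.

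On the cortical side, the leading genes included a transcription factor of dorsal telencephalic neurons together with less familiar genes. Neurod6, a basic helix-loop-helix factor of pallial glutamatergic neurons, was at 62.4 to 112 CPM in frontal cortex (median 86.4) and at 3.75 to 22.4 CPM in amygdala (median 13.4). All 16 frontal cortex libraries were above all 15 amygdala libraries, with a log2 difference of -2.76 (SE 0.18, adjusted p 1.04e-14). The gene 9130024F11Rik, which has no descriptive name, differed most, from 12.2 to 20.8 CPM in frontal cortex to at most 0.989 CPM in amygdala (log2 -5.18, SE 0.15).

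The rest of the 11 frontal-cortex-high genes were of varied kinds. Hkdc1, a hexokinase-domain protein, differed by -3.59, Serinc2, a serine incorporator family member, by -3.34, and Cpne9, a calcium-binding copine, by -3.20 on the log2 scale. Cpne9 was found at 64.6 to 108 CPM in frontal cortex and at 6.6 to 11.6 CPM in amygdala. Arhgap25, a GTPase-activating protein, and Myl4, a myosin light chain known from atrium, both differed by -3.13. Robo3, an axon guidance receptor, followed at -3.12, the alpha-1D adrenergic receptor gene Adra1d at -3.09, Gm11549 at -2.82 and Serpinb8, a protease inhibitor, at -2.81. In hypothalamus the medians of all 11 were below those of frontal cortex, for example 0.809 CPM for Neurod6. For none of the 22 genes chosen for size was the regional difference called as changing with time (smallest adjusted p 0.0871, edgeR interaction test, for Baiap3). Among all large differences 40 of 797 and 28 of 525 were so called. The rule for the 22 asked for no overlap over all times, which selects against such a change, so nothing is read from this.

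The glutamatergic program of pallial neurons was lower in amygdala as a group. Of 16 such genes, 13 were called higher in frontal cortex (background 31.6%), 1 was called higher in amygdala and 2 were not called, and the list's median log2 difference was -1.12 beside 0.02 over all tested genes. Slc17a7, the vesicular glutamate transporter of cortical neurons, ranged from 1302 to 1654 CPM in frontal cortex (median 1437) and from 231 to 1170 CPM in amygdala (median 673). These ranges did not overlap, the amygdala range was wide, and the log2 difference was -1.10 (SE 0.14). The postsynaptic calmodulin-binding protein gene Nrgn stood at 1571 to 2175 CPM in frontal cortex and 412 to 938 CPM in amygdala (-1.33). The transcription factor genes Tbr1 (-1.30), Emx1 (-1.70), Satb1 (-1.48) and Mef2c (-1.14) and the secreted protein gene Dkk3 (-2.14) showed no overlap either. The exception was Lmo3, a LIM-domain transcriptional cofactor, at 186 to 421 CPM in amygdala and 87.8 to 182 CPM in frontal cortex (1.21). Neurod1 and Bhlhe22 were not called, with differences of -0.32 and 0.46.

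A second vesicular glutamate transporter had the opposite sign. Slc17a6, the transporter of many subcortical glutamatergic neurons, was at 63.4 to 144 CPM in amygdala (median 108) and at 14.3 to 31.8 CPM in frontal cortex (median 23.2), a log2 difference of 2.18 (SE 0.094). Related genes were also set side by side in 30 pairs. In 11 pairs both members were called with opposite signs and in 10 with the same sign, where 35.7% of all tested genes were called higher in amygdala and 31.6% higher in frontal cortex, so nothing particular to the pairs is read from the count. Among transcription factors these included Foxp1 (-1.42) with Foxp2 (1.14), Bcl11a (-0.67) with Bcl11b (0.73) and Lmo4 (-1.27) with Lmo3 (1.21). The CaM kinase II genes split as well, Camk2a being higher in frontal cortex (-0.64) and Camk2d higher in amygdala at 174 to 351 CPM against 63.1 to 112 CPM (1.62). Receptors, channel subunits and guidance molecules gave further pairs: Htr2a (-0.43) with Htr2c (2.45), Crhr1 (-0.78) with Crhr2 (2.40), Cacng3 (-0.67) with Cacng5 (1.44), and Ntng2 (-0.97) with Ntng1 (0.96).

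Genes named for cortical layers were found on both sides. Of 15 upper-layer genes, 11 were called higher in frontal cortex (31.6% over all tested genes) and 3 higher in amygdala (35.7%), with a median of -0.70. Lamp5, a lysosome-associated membrane protein of upper-layer and some GABA neurons, ranged from 203 to 379 CPM in frontal cortex and from 54.6 to 98.6 CPM in amygdala (-1.96), and Stard8 (-1.75), Cux2 (-1.28) and Rorb (-1.28) likewise did not overlap. Otof, the otoferlin gene, was the reverse, at 93.1 to 218 CPM in amygdala and 17.5 to 45.2 CPM in frontal cortex (2.21). The 12 layer 5 genes were split into 5 higher in each region and 2 not called: Fezf2, a determinant of subcerebral projection neurons, was cortical at 20.5 to 46 CPM against 2.14 to 19.2 CPM (-1.83), while Tcerg1l was higher in amygdala (1.35). Of 14 layer 6 and subplate genes, 5 were higher in frontal cortex and 4 in amygdala (median 0.12), which is near the shares over all genes. Without the 5 striatum-high amygdala libraries described below, 7 were higher in frontal cortex and 5 in amygdala (median -0.21). Cplx3, a complexin of subplate neurons, was higher in frontal cortex (-1.78), and Ntsr1, the neurotensin receptor used to mark corticothalamic neurons, was higher in amygdala (1.64), as was the neurexophilin gene Nxph4 (2.62).

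Genes used as markers of the amygdaloid nuclei were mostly higher in amygdala than in frontal cortex, but they were not higher there than in hypothalamus for every nucleus. A list member near 0 in one region can enter the test through the other alone and must then differ, so for such lists the counts are over members that passed the low-count filter in each region taken alone. Over the 15288 genes of that kind, 35.4% were called higher in amygdala and 32.4% higher in frontal cortex, with 3.56% and 2.44% large. Of the 16 medial amygdala genes, 6 passed through amygdala alone: Sim1, Otp, Lhx5, Lhx9, Cyp19a1 and Gal. Of the other 10, 8 were called higher in amygdala and 2 higher in frontal cortex, with 5 large, and the median was 0.93 (0.58 without the 5 striatum-high amygdala libraries). The mean log2(CPM + 1) over all 16 was 3.49 to 4.15 in amygdala, 2.19 to 2.81 in frontal cortex and 4.38 to 4.81 in hypothalamus, so hypothalamus was the highest of the 3 regions. Sim1, a transcription factor of medial amygdala and hypothalamic neurons, gave 6009 reads over the 15 amygdala libraries and 10 reads over the 16 frontal cortex libraries, 12 of which had none. Otp, a homeobox partner of Sim1 in the same lineages, gave 1097 and 13 reads, with 8 frontal cortex libraries at 0. Both genes are thus near the detection limit in frontal cortex, and no fold is given for them.

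Lhx9, a LIM homeobox gene, was at 4.14 to 16.2 CPM in amygdala and at most 0.528 CPM in frontal cortex; like Sim1 and Otp it passed the filter through amygdala alone. Ecel1, an endothelin-converting enzyme-like protease of neurons, was at 38.4 to 101 CPM against 1.79 to 13.3 CPM (3.68), and the serotonin 2C receptor gene Htr2c at 128 to 173 CPM against 10 to 46.8 CPM (2.45). Of the steroid genes on the list, the oestrogen receptor Esr1 was at 4.81 to 25.3 CPM against 1.89 to 4.27 CPM (2.19), and Cyp19a1, the aromatase gene, gave 811 reads in amygdala and 31 in frontal cortex, where 4 libraries had none. Pgr, the progesterone receptor gene, was higher in frontal cortex (-0.46).

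The basolateral list gave 9 of 12 genes higher in amygdala (background 35.7%), 2 higher in frontal cortex and 1 not called (median 0.87). Nr2f2, a nuclear receptor of caudal and ventral telencephalon, ranged from 53.9 to 161 CPM in amygdala (median 114) and from 7.64 to 12.6 CPM in frontal cortex (median 9.8), a log2 difference of 3.43 (SE 0.14). Its relative Nr2f1 did not pass the test (0.15). Lypd1, a modulator of nicotinic receptors, was at 168 to 434 CPM against 34.6 to 60.2 CPM (2.66), and Cyp26b1, which degrades retinoic acid, at 16.2 to 51 CPM against 6.19 to 13.1 CPM (2.09). Rspo2, an R-spondin that is widely used to mark basolateral neurons, went the other way, with 2.56 to 11.6 CPM in amygdala and 10.7 to 19.9 CPM in frontal cortex (-1.12), as did the neurotrophin gene Bdnf (-0.52).

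Of 15 central amygdala genes that passed in both regions, 9 were higher in amygdala (background 35.4%), 2 higher in frontal cortex and 4 not called (median 0.90). The mean over the list overlapped between amygdala, 4.97 to 6.12, and hypothalamus, 5.08 to 5.54. Nts, the neurotensin precursor, was at 15.2 to 51.6 CPM against 0.321 to 6.53 CPM (3.35, SE 0.36), and Wfs1, the wolframin gene, at 178 to 354 CPM against 75.4 to 139 CPM (1.21). Prkcd, a protein kinase C that marks a class of central amygdala neurons, showed a small difference with no overlap, 13.8 to 24.6 CPM against 10.5 to 13.6 CPM (0.63). Crh, the corticotropin-releasing hormone gene, was not called (-0.08), with 4.36 to 9.97 CPM in amygdala and 5.38 to 11.2 CPM in frontal cortex. Several genes of the list are also abundant in striatum, among them Penk, the proenkephalin gene, at 135 to 773 CPM against 43.9 to 237 CPM (1.39), and their levels moved with striatal genes in single libraries, as follows.

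**Figure D2:**
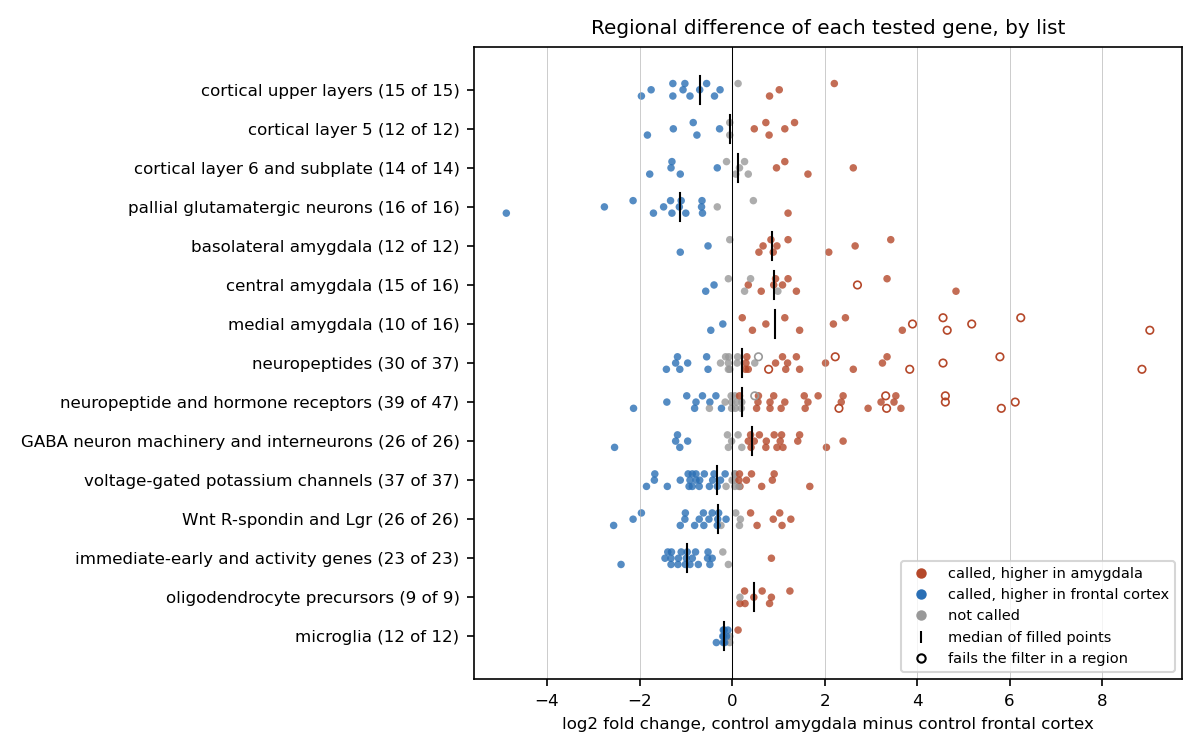
Log2 fold change, control amygdala minus control frontal cortex, of each tested gene in 15 lists; the brackets give how many of the tested genes passed the low-count filter in both regions, red points are called higher in amygdala, blue points called higher in frontal cortex, grey points not called, open points failed the filter in a region, and the black tick is the median of the filled points. The pallial and immediate-early lists lie left of 0 with medians of -1.12 and -0.97, and the filled points of the medial amygdala list have a median of 0.93, or 0.58 without the 5 striatum-high amygdala libraries.

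Genes typical of striatum, olfactory bulb and choroid plexus differed from library to library, and whether the dissections held such tissue was not tested. The mean log2(CPM + 1) over 18 striatal genes ran from 4.20 to 7.12 in amygdala and from 4.03 to 5.91 in frontal cortex. In 5 amygdala libraries, 3 of 30 min and 1 each of 60 and 120 min, it was high: Drd1, the D1 dopamine receptor gene, reached 178 CPM against an amygdala median of 38.5 CPM, and Rgs9, a striatal regulator of G protein signalling, reached 300 CPM against 39.6 CPM. With all libraries, 5 of 17 tested striatal genes were called higher in amygdala and 1 higher in frontal cortex (median 0.75), beside 35.7% and 31.6% of all tested genes. Without those 5 libraries, 2 were called higher in amygdala and 6 higher in frontal cortex (median -0.49). The 5 were chosen for these same genes, so a shift of the list towards frontal cortex was fixed in advance. Nothing is read from it. The choice was made in amygdala alone: frontal cortex libraries at 5.913, 5.826 and 5.79 were kept, and amygdala libraries at 5.883 and 5.886 were left out. In the fit without the 5, Drd1 lost its call (1.23 to 0.25), and Rgs9 was no longer called and changed sign (-0.20). Both are on the list. Outside it, Bhlhe22 (0.88), Nr2f1 (0.36) and Crh (-0.33) became called. The list of 14 oligodendrocyte genes moved too, from 1 to 13 genes called higher in frontal cortex (median -0.10 and -0.45; 31.6% of all tested genes with all libraries).

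Striatal genes varied in frontal cortex too, the SD of log2 CPM being 1.22 for Drd2 and 1.18 for Adora2a (1.42 and 1.65 in amygdala). In frontal cortex the olfactory bulb list varied as well, from 0.98 to 3.52, while no amygdala library was above 2.47 (median 2.24). Cdhr1, a cadherin-related gene of bulb mitral cells, ranged from 1.04 to 34.9 CPM in frontal cortex and from 5.79 to 15.9 CPM in amygdala. Eomes, a T-box factor of the same cells, was at 3.76 to 8.81 CPM in the same 4 frontal cortex libraries that were high for the list, against at most 2.37 CPM in the other frontal cortex libraries and 0.867 CPM in amygdala. Doc2g, a C2-domain gene of the list, was at 7.1, 9.29, 6.09 and 14.9 CPM in these 4 libraries, at 1.39 to 5.16 CPM in the other frontal cortex libraries and at 1.52 to 4.14 CPM in amygdala, and its difference of -0.59 (adjusted p 0.0478, edgeR) was 0.01 without the 4. With limma voom Doc2g was not called (adjusted p 0.158). Leaving out those 4 libraries took the 7 bulb genes that passed the filter in both regions from 2 higher in each region to 5 higher in amygdala and 1 in frontal cortex (median 0.03 and 0.69), beside 35.4% and 32.4% of genes of that kind with all libraries. The 4 were chosen for the genes of this list, so such a shift was fixed in advance and nothing is read from it. Choroid plexus genes were high in 1 amygdala library of 60 min, in which Ttr, the transthyretin gene, reached 1649 CPM against an amygdala median of 4.58 CPM. Ttr was also high in other libraries, at 108 and 206 CPM in 2 amygdala libraries of 30 min and at 149, 227 and 298 CPM in 3 frontal cortex libraries. The 60 min amygdala library also had the highest amygdala mean over meningeal genes, 5.46. Ttr was not called (0.44), and its difference was -1.10 without that library. With either set left out, 13 pallial genes were called higher in frontal cortex, 7 of the 10 medial amygdala genes higher in amygdala, and 9 basolateral genes higher in amygdala. Of the 15 central amygdala genes, 9 were higher in amygdala and 4 in frontal cortex without the 5 striatum-high libraries (median 0.62), against 9 and 2 with all libraries (median 0.90).

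**Figure D3:**
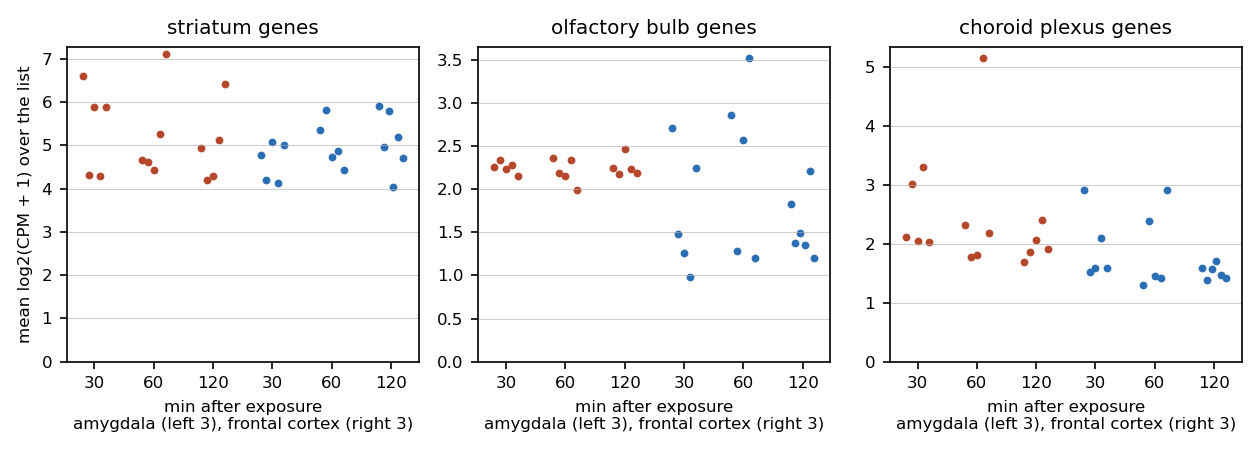
Mean log2(CPM + 1) over the striatum, olfactory bulb and choroid plexus lists in each control library, plotted by time after exposure, with amygdala in red on the left of each panel and frontal cortex in blue on the right. Striatal genes are high in 5 amygdala libraries and reach 5.91 in frontal cortex. Bulb genes are high in 4 frontal cortex libraries, and choroid plexus genes in 1 amygdala library at 5.16.

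Genes of GABA neurons had members on both sides. Of 26 genes, 16 were called higher in amygdala (35.7% over all tested genes), 5 higher in frontal cortex (31.6%) and 5 not called (median 0.44). Gad2, a GABA-synthesising enzyme, was at 290 to 709 CPM against 134 to 218 CPM (1.42), and the vesicular GABA transporter Slc32a1 at 126 to 276 CPM against 79.6 to 122 CPM (0.97). Nos1, the neuronal nitric oxide synthase, stood out at 107 to 251 CPM against 24.3 to 38.5 CPM (2.40), and Reln, the reelin gene, at 94 to 172 CPM against 47.2 to 79.7 CPM (1.10). Pvalb, the parvalbumin gene of fast-spiking interneurons, was at 38.9 to 79.2 CPM in frontal cortex and 3.82 to 21.4 CPM in amygdala (-2.54). Some peptides of other interneurons had the same sign: Cck (-1.22), Vip (-1.18) and Npy (-1.13) were all higher in frontal cortex. Sst, the somatostatin gene, was slightly higher in amygdala (0.35), with overlapping ranges.

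Peptide genes and their receptors had members on both sides, with the larger number of calls in amygdala. Of 37 tested neuropeptide genes, from a list of 44, 30 passed the low-count filter in both regions, and 14 of these were higher in amygdala and 7 in frontal cortex, with 9 and 4 large (median 0.21). Over all genes of that kind the shares were 35.4% and 32.4%, and 3.56% and 2.44% for large differences. Of 47 tested receptors for peptides and hormones, from a list of 49, 39 passed in both regions, with 20 higher in amygdala and 9 in frontal cortex, 13 and 2 of them large (median 0.21). The receptor median was 0.50 with the animal as a block and 0.47 without the 4 bulb-high frontal cortex libraries. The 5 peptide genes that passed through amygdala alone were Avp, Oxt, Gal, Ucn3 and Prok2, and 8 receptor genes did so, Galr1, Calcr, Cckar and Avpr1a among them. Ucn3, the urocortin 3 gene, gave 3580 reads over amygdala libraries and 6 reads over frontal cortex libraries, 14 of which had none. Its receptor gene Crhr2 was at 3.15 to 6.56 CPM against 0.382 to 1.35 CPM (2.40), while Crhr1, which binds corticotropin-releasing hormone, was higher in frontal cortex with no overlap (-0.78). Gal, the galanin gene, was at 0.885 to 4.57 CPM in amygdala and at most 0.303 CPM in frontal cortex, and its receptor Galr1 at 1.66 to 4.27 CPM against at most 0.357 CPM. Trh, the thyrotropin-releasing hormone gene, ranged from 6.01 to 46.7 CPM against 0.221 to 7.51 CPM (3.25, SE 0.38), and its receptor Trhr from 6.39 to 45.6 CPM against 1.23 to 2.56 CPM (3.65).

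Further receptors had members on each side. Npy2r, a neuropeptide Y receptor, was at 21.8 to 55.3 CPM in amygdala and 2.15 to 5.86 CPM in frontal cortex (3.50), although its ligand gene Npy was higher in frontal cortex. The tachykinin receptors Tacr1 (2.94) and Tacr3 (3.22) and the prolactin receptor Prlr (3.54) were higher in amygdala. Prlr is also on the choroid plexus list, and its highest amygdala level, 35.7 CPM, compares with a median of 10.8 CPM. The calcitonin receptor gene Calcr gave 3297 reads in amygdala and 47 in frontal cortex, and the cholecystokinin A receptor gene Cckar 1210 and 20. Its B-type relative Cckbr, like the ligand gene Cck, was higher in frontal cortex, at 62.4 to 89.7 CPM against 16.3 to 56.5 CPM (-0.98), and so were Vipr1 (-1.41) and Ramp3, an accessory protein of calcitonin-family receptors (-2.13). For the social peptides, Oxt, the oxytocin gene, was at 0.259 to 6.55 CPM against at most 0.299 CPM, its receptor Oxtr at 14.5 to 32.8 CPM against 5.55 to 15.7 CPM (1.56), and the vasopressin receptor Avpr1a at 0.358 to 2.29 CPM against 0.0919 to 0.486 CPM. The ranges of these 3 genes overlapped between the regions.

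Receptors for classical transmitters had members on each side. Of 31 monoamine genes that passed in both regions, 14 were higher in amygdala (35.4% over genes of that kind) and 10 in frontal cortex (32.4%), with a median of 0.23. Without the 5 striatum-high amygdala libraries the counts were 12 and 11 (median -0.10). Htr4, a serotonin receptor coupled to stimulatory G protein, was at 3.68 to 20.1 CPM against 0.468 to 2.28 CPM (2.85), while the adrenergic receptors Adra1b (-1.84) and Adrb1 (-0.99) were higher in frontal cortex, like Adra1d. In the cholinergic list, 8 of the 14 genes that passed in both regions were higher in amygdala and 5 in frontal cortex. Chrm5, a muscarinic receptor that passed through amygdala alone, was at 1.15 to 4.06 CPM against at most 0.317 CPM, and the nicotinic subunit Chrna5 was higher in frontal cortex (-1.81). Chat, the acetylcholine-synthesising enzyme, overlapped widely, at 0.358 to 23.6 CPM against 0.462 to 5.07 CPM (2.57, SE 0.53). Its 5 highest amygdala levels, 11.1 to 23.6 CPM, were those of the 5 striatum-high libraries, and without them the difference was 1.16 (adjusted p 0.0261, edgeR). Among GABA-A receptor subunits, 6 of the 14 that passed in both regions were higher in amygdala and 4 in frontal cortex. Gabrg1 (1.36) was large beside Gabrq, and Gabrd, the delta subunit of extrasynaptic receptors, was cortical (-1.03). Glutamate receptors were even, with 10 of 24 higher in amygdala and 9 in frontal cortex: the NMDA subunit gene Grin3a was at 73.6 to 123 CPM against 30.3 to 45.7 CPM (1.40), the kainate subunit gene Grik1 was higher in amygdala (1.33), and the metabotropic receptor gene Grm2 was higher in frontal cortex (-0.88).

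Of 37 voltage-gated potassium channel genes, 21 were called higher in frontal cortex (31.6% over all tested genes) and 9 higher in amygdala (35.7%), with a median of -0.32. Kcnab3, an auxiliary beta subunit, was at 55.4 to 117 CPM in frontal cortex and 16.5 to 41.9 CPM in amygdala (-1.85). The modifier subunits Kcns3 (-1.68) and Kcns1 (-1.67), the Erg-type channel Kcnh7 (-1.40) and the M-current subunit Kcnq5 (-1.12) followed, all with no overlap. Kcnd3, an A-type channel, was the reverse, at 115 to 166 CPM in amygdala and 63.6 to 90.6 CPM in frontal cortex (0.91). Of 26 Wnt pathway genes, 16 were higher in frontal cortex and 6 in amygdala (median -0.31), beside the same shares over all genes; 13 were higher in frontal cortex without the 4 bulb-high libraries described above, and the median was -0.49 without the 5 striatum-high amygdala libraries. The ligands Wnt10a (-2.56) and Wnt9a (-1.96) and the R-spondin Rspo3 (-0.71) were cortical with no overlap, and Wnt5a was higher in amygdala, at 11.5 to 21.1 CPM against 6.56 to 9.59 CPM (1.08).

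Among 56 patterning factors that passed in both regions, 28 were higher in amygdala (35.4% over genes of that kind) and 22 in frontal cortex (32.4%), with a median of 0.24 (0.12 without the 5 striatum-high amygdala libraries). Meis1, a homeobox cofactor, was at 11.1 to 22.2 CPM in amygdala against 1.7 to 5.52 CPM (2.18), with Zfhx3 (1.93) and Pbx3 (1.81) beside it, and Pou3f3, a factor of upper-layer neurons, was cortical (-0.71). Guidance genes also had members on each side. Of 44 semaphorin, plexin, netrin and slit genes, 25 were higher in amygdala and 8 in frontal cortex (median 0.28), beside the same shares. Of 20 Eph receptor and ephrin genes that passed in both regions, 6 and 8 were (median -0.18). Efnb3, an ephrin ligand, was at 122 to 201 CPM in amygdala and 30.6 to 81.1 CPM in frontal cortex, with no overlap. The receptors Ephb6 (-1.87) and Epha4 (-1.18) were higher in frontal cortex.

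Glial genes differed mostly by less than a large difference, with Agt as an exception. Of 9 genes of oligodendrocyte precursors, 8 were higher in amygdala (35.7% over all tested genes) and 0 in frontal cortex (31.6%; median 0.47), with Pdgfra, their growth factor receptor, at 67.8 to 89.7 CPM against 34.1 to 54.8 CPM (0.81) and the NG2 proteoglycan gene Cspg4 at 20.7 to 33.1 CPM against 12.7 to 19.4 CPM (0.85). Of 12 microglial genes, 9 were called higher in frontal cortex, but by little (median -0.17), as in Trem2, a microglial lipid receptor (-0.34). Astrocyte genes were mixed, 8 of 16 higher in amygdala and 4 in frontal cortex. Agt, the angiotensinogen gene, was by far the most regional of them, at 29.5 to 76.7 CPM against 3.1 to 7.67 CPM (3.70, SE 0.12), followed by Gfap, the astrocyte intermediate filament (1.13), and by Chrdl1, a BMP antagonist, on the cortical side (-1.65). Of 12 meningeal and fibroblast genes, 10 were called higher in amygdala (median 0.48), and their mean log2(CPM + 1) overlapped between regions, at 3.29 to 5.46 in amygdala and 3.63 to 4.43 in frontal cortex. That count was 6 without the 5 striatum-high amygdala libraries and 7 without the 4 bulb-high frontal cortex libraries.

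Activity-regulated genes were mostly higher in frontal cortex. Neurons induce these immediate-early genes within minutes of firing, largely through calcium and cyclic AMP signals. Of 23 genes, 20 were called higher in frontal cortex (background 31.6%), 1 higher in amygdala and 2 not called, and 10 of the 20 were large (background 3.17%; median -0.97). Arc, a synaptic capsid-like protein, ranged from 210 to 603 CPM in frontal cortex (median 438) and from 34.1 to 139 CPM in amygdala (median 82.5), a log2 difference of -2.40 (SE 0.12, adjusted p 5.05e-17). Its level was lower at later times in both regions, with amygdala means of 108 ± 14.2, 92 ± 27.9 and 57.2 ± 14.6 CPM at 30, 60 and 120 min (SD, n = 5 each). The frontal cortex means were 543 ± 65.7, 452 ± 92.1 and 338 ± 110 CPM (SD, n = 5, 5 and 6). The regional difference was similar at each time (-2.32, -2.30 and -2.56), and its change with time was not called (adjusted p 0.811).

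The zinc finger factor Egr1 was at 351 to 617 CPM in frontal cortex and 133 to 273 CPM in amygdala (-1.31, SE 0.067), with no overlap, and so were Ier2 (-1.45), Nr4a1 (-1.39), Nr4a2 (-1.32), Egr3 (-1.32), the synaptic scaffold gene Homer1 (-1.17) and the phosphatase gene Dusp6 (-1.16). Fos, the first member of the AP-1 family, overlapped between regions over all times, at 22 to 70.9 CPM in frontal cortex and 11.2 to 39.6 CPM in amygdala (-0.86, SE 0.09). Nr4a3 (-0.20) and Btg2 (-0.08) were not called. Jun, a partner of Fos, was the one gene of the list called higher in amygdala, at 43.2 to 105 CPM against 33.4 to 50.7 CPM (0.85). None of the 23 genes was called for a regional difference that changed with time, against 10.8% of all tested genes, and the count of 20 against 1 was the same without the 5 striatum-high or the 4 bulb-high libraries.

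**Figure D4:**
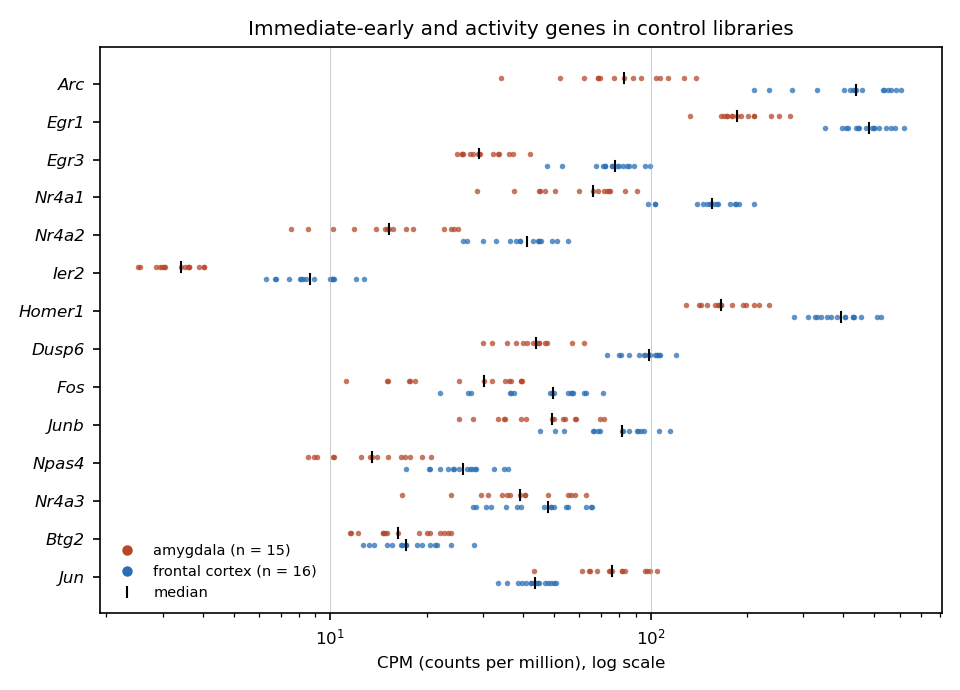
CPM on a log axis of 14 immediate-early and activity genes in control libraries, amygdala in red (n = 15) and frontal cortex in blue (n = 16), with the median as a black tick. Frontal cortex medians lie to the right for 11 genes from Arc to Npas4, although the ranges of some, such as Fos and Npas4, overlap; Nr4a3 and Btg2 were not called, and Jun is reversed with medians of 75.7 and 43.6 CPM.

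Because most members of this list moved together, their promoters were searched for the core of the cyclic AMP response element, TGACG, on both strands, in the 250 bases before the start of each gene. A promoter sequence was matched for 18 of the 23 genes, and 12 of these (66.7%) held the letters, against 3078 of 12030 promoters of all tested genes (25.6%). The 12 include Nr4a3 and Btg2, which were not called. Among genes with large differences the letters were in 77 of 356 promoters of frontal-cortex-high genes (21.6%) and in 86 of 567 of amygdala-high genes (15.2%), both below the share of all genes. The full palindrome TGACGTCA, which contains the core, was in 2 of the 18, Btg2 and Dusp1, and in 2.59% of all. A match is a description of the letters and not evidence of binding. The promoters of Fos and Nr4a1, higher in frontal cortex, and of Jun, the exception, are shown as examples from RefSeq (GRCm38.p6), 5′ to 3′ on the gene's strand, with TGACG or its reverse complement in capitals. Jun was not alone in lacking the letters: some genes of the list that were called higher in frontal cortex lacked them too. The Fos window is chr12:85473640-85473889 on the plus strand and holds 2 matches, the Nr4a1 window is chr15:101266596-101266845 on the plus strand and holds 4, and the Jun window is chr4:95052223-95052472 on the minus strand and holds 0.
Fos: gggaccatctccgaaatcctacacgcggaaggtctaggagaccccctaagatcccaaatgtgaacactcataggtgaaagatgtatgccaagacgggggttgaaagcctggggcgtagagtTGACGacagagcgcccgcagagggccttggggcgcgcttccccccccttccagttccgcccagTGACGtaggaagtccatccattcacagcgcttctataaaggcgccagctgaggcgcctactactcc
Nr4a1: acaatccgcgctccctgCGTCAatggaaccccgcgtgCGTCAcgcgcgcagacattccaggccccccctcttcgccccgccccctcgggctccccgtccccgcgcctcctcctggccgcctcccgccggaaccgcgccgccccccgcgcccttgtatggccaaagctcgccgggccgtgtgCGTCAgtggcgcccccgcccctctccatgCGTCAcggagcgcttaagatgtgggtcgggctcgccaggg
Jun: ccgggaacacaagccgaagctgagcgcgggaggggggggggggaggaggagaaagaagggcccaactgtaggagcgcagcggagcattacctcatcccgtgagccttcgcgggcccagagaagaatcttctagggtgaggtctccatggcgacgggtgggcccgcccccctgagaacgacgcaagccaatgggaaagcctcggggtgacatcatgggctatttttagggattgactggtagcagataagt

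The regional difference changed with time for 1787 genes (10.8%), of which 40 and 28 were among the large amygdala-high and frontal-cortex-high genes. The clearest changes were in genes whose frontal cortex level dipped at 60 min. S1pr1, a receptor for sphingosine-1-phosphate, was at 172, 181, 159, 161 and 183 CPM in frontal cortex at 30 min and at 71.8, 84.1, 95.5, 62.1 and 69.7 CPM at 60 min. In amygdala the same times gave 105, 110, 117, 95.1 and 135 CPM and then 145, 131, 140, 144 and 165 CPM. The groups thus did not overlap at either time and changed places between them, with log2 differences of -0.60 at 30 min, 0.92 at 60 min and 0.09 at 120 min (adjusted p of the change 2.43e-07). Proser1, a proline- and serine-rich protein, had frontal cortex means of 25.7 ± 1.48, 7.83 ± 2.82 and 15.8 ± 2.86 CPM (SD, n = 5, 5 and 6) and amygdala means of 15 ± 1.07, 20.9 ± 1.55 and 18.5 ± 1.53 CPM (SD, n = 5 each).

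Rbm25, a splicing factor, had the same signs at 30 and 60 min and averaged 136, 87.4 and 102 CPM in frontal cortex and 90.2, 124 and 131 CPM in amygdala at the 3 times (adjusted p 2.43e-07), with a difference of 0.37 at 120 min. The count of such genes rested on few libraries: it was 369 without the 4 bulb-high frontal cortex libraries, 3 of which are of 60 min, and 1108 without frontal cortex control 5 of 60 min alone. S1pr1, Rbm25 and Proser1 were still called in those fits. The 30 min libraries also carry another tag in their column headers than those of 60 and 120 min. The meaning of the tag is not stated, and the tag and the time cannot be told apart. Among frontal cortex controls no leading index was shared between times, so index and time cannot be told apart there either. Their share of reads outside genes was 8.99 to 9.71% at 60 min, 10.99 to 12.7% at 30 min and 9.46 to 11.3% at 120 min. Whether this bears on the change with time was not tested.

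**Figure D5:**
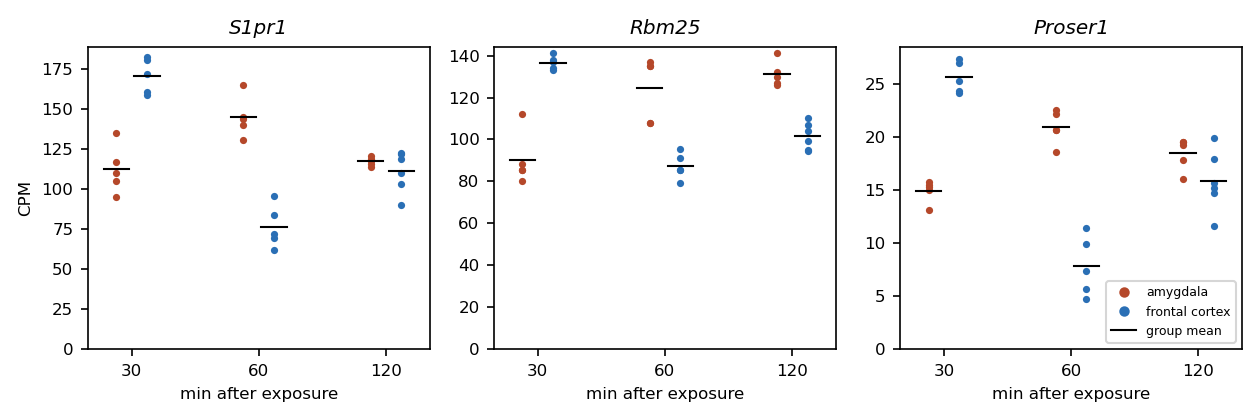
CPM of S1pr1, Rbm25 and Proser1 in each control library by time after exposure, amygdala in red and frontal cortex in blue (n = 5 a group, 6 for frontal cortex at 120 min), with the group mean as a black line. Frontal cortex is above amygdala at 30 min and below it at 60 min for all 3 genes.

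The same comparison was made in intruder-exposed residents, which share no library with the controls. Of 16593 genes tested, 10759 were called (64.8%), with 720 large differences higher in amygdala (4.34%) and 502 higher in frontal cortex (3.03%). Of the large amygdala-high genes 655 were large in both sets, 82.2% of the control list and 91.0% of the intruder list, and of the cortical ones 452, which is 86.1% and 90%. No gene was large with opposite signs in both. A test of whether the regional difference changed with the stimulus called 0 of 16707 genes with edgeR (371 at an unadjusted p below 0.05), 0 with DESeq2, 0 with limma voom and 0 with the animal as a block. All 22 genes described for size in controls kept their direction in the intruder set, for example -5.27 for 9130024F11Rik. The amygdala-high genes had smaller differences there, such as 4.39 for Avp and 3.86 for Irs4. The frontal cortex intruder library of 120 min numbered 1 held the highest cortical level of all 11 of them, with Baiap3 at 67.7 CPM against at most 18 CPM in the others. Without that library the differences were 5.51 for Avp, 4.78 for Irs4 and 4.80 for Baiap3.

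In the whole series 1 leading index served both regions, in the amygdala controls and 1 amygdala intruder library of 120 min and in 2 frontal cortex intruder libraries of 30 min. The check set the 5 controls against those 2 frontal cortex libraries, so time and stimulus differ in it. All 22 genes described for size were still called with the same sign there. Calls lost among the genes named above were those of Camk2a, Bcl11a, Bcl11b, Foxp2, Bdnf, Wfs1, Penk, Esr1, Cyp19a1, Drd1, Rgs9, Cck, Avpr1a, Htr4, Grm2, Cacng3, Chat, Trem2, Eomes, Doc2g, Pmch and Jun. Some of these had differences close to those above, such as 1.98 for Esr1 (adjusted p 0.0504) and -0.48 for Camk2a (0.0837), and others were smaller, such as 0.27 for Jun.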

How the data were processed

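Per the labels' protocols, total RNA was extracted with Trizol, treated with DNase and made into stranded poly(A) libraries (TruSeq Stranded mRNA) read from one end; the labels also speak of pooling, and at which step is unclear. The deposited values are read counts per gene, not normalized by the authors. The submitters' processing notes name CASAVA 1.8.2, TopHat2 2.0.8, HTSeq 0.6.1, edgeR 3.2.4, R 3.0.0 and the build NCBIM37. The table held 37991 identifiers, 32919 of which matched a gene symbol, and 5 further lines of unassigned reads were left out. No pair of control libraries of the same region and time agreed within sampling noise.

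Counts of the 31 control libraries were filtered with filterByExpr (applied also to each region alone, a step added after the data were seen), scaled with TMM and tested with edgeR 4.0.16 (quasi-likelihood, region plus time, Benjamini-Hochberg) in R 4.3.3. DESeq2 1.42.0 and limma 3.58.1 voom were alternatives. Region by time and region by stimulus were interaction terms. Standard errors are the log2 fold change divided by the square root of F. Printed CPM used TMM over all 90 libraries. Chromosomes came from a GRCm38 annotation, matched by identifier, and promoters from RefSeq (GRCm38.p6); neither is the authors' build. Tests were tried on simulated data first.

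By label 15 animals gave both regions, so the pairing is real; the correlation of paired deviations was -0.099 to 0.27. The fit has no block, and a block by animal was an alternative. Genes named for size had a symbol, a call, a mean of at least 10 CPM in the higher region and groups that did not overlap, the 12 largest differences in each direction being taken; up to 4 genes with the smallest p were named for region by time, and others come from gene lists and pairs. Members, lists and tests were chosen with earlier results of these data known. The imprinted list, and the libraries left out for striatal or bulb genes, were chosen after the values were seen. Pou3f2, Kiss1, Slc18a3 and Lhx8 were not analysed here. Some genes that met these rules are not reported here, leaving 11 in each direction and 3 for region by time; none was replaced.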

Additional observations from a re-analysis of the deposited data

Results flagged for a closer look

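Within groups of 5 or 6 libraries, 156 sets of values were examined for a library far from the rest, over 26 quantities, and 9 stood apart; chance sets apart about 1 in 20. In frontal cortex controls of 120 min, library 3 had the highest Avp level, 0.55 CPM against 0.229 to 0.299 CPM in the others, and the highest AW551984 level, 4.63 CPM against 2.56 to 3.05 CPM. Hkdc1 was at 23.7 CPM in library 4 of that group (others 16.4 to 18.8 CPM). Gabrq was lowest in library 4 of the frontal cortex controls of 30 min, at 0.522 CPM against 0.689 to 0.73 CPM, and Serinc2 was at 19.5 CPM in library 6 of those of 60 min, against 11.1 to 12.7 CPM in the others.

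In amygdala, 9130024F11Rik was at 0.544 CPM in library 4 of 30 min (others 0.274 to 0.314 CPM) and at 0.748 CPM in library 2 of 120 min (others 0.427 to 0.484 CPM). The mean log2(CPM + 1) of olfactory bulb genes was 2.47 in library 3 of 120 min (others 2.18 to 2.25). That of choroid plexus genes was 5.16 in library 5 of 60 min (others 1.77 to 2.32).

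The regional difference changed with time for 1787 genes by edgeR's interaction test, with adjusted p-values of 2.43e-07 for S1pr1, 2.43e-07 for Rbm25 and 1.11e-06 for Proser1. Beside these values, 3 of the 4 frontal cortex libraries high in bulb genes are of 60 min; their part in the result was not tested for single genes beyond leaving them out.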

How the results depend on the processing

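With the animal as a block, 10754 genes were called (5629 and 5125 higher in amygdala and frontal cortex), 1321 were large, 1529 changed with time and 9963 were called in intruder-exposed animals; among genes discussed, Pmch, Rgs9, Eomes and Doc2g lost their call and no gene named for size did. With that block the median of the 7 olfactory bulb genes was 0.22 against 0.03. In the libraries sharing a leading index 4134 genes were called (2038 and 2096), from fewer libraries. Without the 4 bulb-high frontal cortex libraries the called genes split into 5258 and 5573, the reverse of the balance with all libraries. Large differences numbered 2593 without the low-count filter (1672 and 921), 841 when tested against a fold of 2 (503 and 338) and 373 at a log2 difference of at least 2. Genes changing with time numbered 989 without the 5 striatum-high amygdala libraries and 369 without the 4 bulb-high frontal cortex libraries; the cause was not tested. Rgs9 changed sign to -0.16 with a shared leading index and to -0.20 without the 5 amygdala libraries, and Eomes (0.16) and Doc2g (0.01) without the 4 frontal cortex libraries. Rgs9, Eomes and Doc2g are on the lists for which those libraries were chosen.

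Leaving out each library in turn gave 10920 to 11259 called genes (5514 to 5956 higher in amygdala, 5099 to 5699 in frontal cortex), 1286 to 1378 large ones (776 to 826 and 510 to 579), 1108 to 2146 changing with time and 10531 to 10833 in intruder-exposed animals. DESeq2, limma voom, RLE and upper-quartile scaling gave 11174, 11158, 11149 and 11133 called genes. At this depth genes with few reads in a region, such as Sim1 and Cyp19a1 in frontal cortex, allow no fold.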

Other observations

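Imprinted genes, which are expressed from one parental allele, were mostly higher in amygdala; the list was drawn up after Dlk1 and Magel2 were seen among the largest differences, so its count is a description. Of 33 members that passed the low-count filter in both regions, 27 were called higher in amygdala (35.4% over genes of that kind) and 2 higher in frontal cortex (32.4%), with 12 large differences, all higher in amygdala (3.56%), and a median of 0.56. Nnat, the neuronatin gene, was at 199 to 421 CPM in amygdala and 27.7 to 108 CPM in frontal cortex (log2 2.49). Peg10, a gene derived from a retrotransposon, was at 81.8 to 179 CPM against 18.3 to 32.5 CPM (2.27), and Ndn, the necdin gene, at 149 to 300 CPM against 77.6 to 126 CPM (1.22). Neither pair of ranges overlapped, nor did that of Nnat. Zim1 (3.72), Usp29 (1.91) and the adaptor gene Grb10 (1.57) were also large, while Ppp1r9a (-0.26) and Begain (-0.26) were the members higher in frontal cortex. The count was 26 without the 5 striatum-high amygdala libraries and 25 without the 4 bulb-high frontal cortex libraries. The mean log2(CPM + 1) over the list was 5.22 to 5.59 in amygdala, 4.37 to 4.62 in frontal cortex and 5.99 to 6.36 in control hypothalamus. Hypothalamus was thus the highest of the 3 regions.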
